A study of Homo sapiens with 6 samples.

Results

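The SRSF genes, which encode serine/arginine-rich splicing factors (SR proteins), and the HNRNP genes, which encode proteins of heterogeneous nuclear ribonucleoproteins (hnRNPs), were examined in T24 cells, a human bladder carcinoma line. A gene was a member if the deposited table classed it as protein coding and its symbol was SRSF followed by digits, or HNRNP followed by capital letters and digits. The rule, which used no measured value, found 38 of 58825 rows, 12 SRSF genes and 26 HNRNP genes. HNRNPA1P48 was a member because the table classes it as protein coding, although its symbol has the form of a pseudogene symbol. HNRNP proteins with other kinds of symbols, such as PTBP1 or SYNCRIP, were not members and were placed in separate lists.

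All 6 libraries came from T24 cells grown in medium with serum and antibiotics. 3 libraries carried the control hairpin shNC-1 (genotype WT in the labels), here the controls, and 3 the hairpin shDLGAP5-1, here the knockdown libraries. DLGAP5 encodes a protein of spindle microtubules, and the series title links it to the cell-cycle factor E2F1. A single hairpin stood for the knockdown and a single hairpin for the control, and the labels name neither a promoter nor the time after transduction. Whether the libraries are separate cultures is not in the labels, and p-values therefore reflect only how far these libraries scatter, which may be technical.

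SR proteins have RNA recognition motifs followed by a tail of arginine-serine repeats. They bind enhancer sequences in exons and recruit the spliceosome, and kinases of the SRPK and CLK families phosphorylate the tail. hnRNP proteins coat the nascent transcript, often hold exons out of the message, and take part in export, stability and translation of mRNA. Many of these genes control their own level through alternative exons that carry a stop codon and send the transcript to nonsense-mediated decay.

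Levels were taken as FPKM, fragments per kilobase of transcript scaled by library size, although the deposited table names no unit. On that reading levels of different genes can be compared with each other. DLGAP5 itself, the target of the hairpin, stood at 31.8 ± 1.83 FPKM in the controls and at 5.51 ± 1.804 FPKM after knockdown (SD over 3 libraries), with no overlap. Library totals ran from 413001 to 487559 FPKM. Depth was estimated from the most common product of value and gene length over processed pseudogenes. It came to about 21400000 to 28200000 fragments for shNC-1 and 13500000 to 18600000 for shDLGAP5-1. Only 11.5% to 19.1% of low values lay within 0.05 of a whole number of fragments by that estimate, so these depths are rough. The T24 keratins KRT7, KRT8 and KRT18 and vimentin (VIM) were each at 236.7 FPKM or more in every library, and KRT8 and KRT18 were lower in each knockdown library than in any control without passing the test. KRT19, another keratin, fell, with 17.8 to 20.9 FPKM in the controls and 10.6 to 11.1 FPKM after knockdown (log2 change −0.76; adjusted p by limma = 0.00438). The epithelial cadherin CDH1 stayed at or below 0.17 FPKM and EPCAM at 0.766 to 1.19 FPKM. Of 17 markers of blood cells, genes of leukocytes and the haemoglobin genes HBB and HBA1, 6 to 10 were at 0 in each library, and CD3D, CD3E, MS4A1, FCN1, S100A12 and HBA1 were at 0 in all 6. Their summed level without SRGN, which was high in all libraries, was 5.48 to 25.2 FPKM in 5 libraries. It was 735 FPKM in knockdown replicate 3, most of it LYZ, lysozyme. In that library SRGN (1013 FPKM, at most 480.5 FPKM elsewhere), CSF3R (8.94, at most 0.447) and PTPRC (7.03, at most 0.292) were also highest. So were S100A9 (10.2, at most 3.43), S100A8 (4.52, at most 0.98) and NKG7 (3.16, at most 0.153). CD14 and CD79A were highest in other knockdown libraries. CD74, a chaperone of antigen presentation on the same list, rose, with 2.51 to 3.00 FPKM in the controls and 10.6 to 14.8 FPKM over the 3 knockdown libraries (log2 change 1.798; adjusted p by limma = 0.000912). The part of CD74 and KRT19 in the results on the members was not tested. Results on the members without knockdown replicate 3 are given with the family medians.

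Of the 38 members, 33 passed the filter of at least 1 FPKM in at least 3 libraries and were tested, 11 SRSF and 22 HNRNP genes. The other 5 members were listed at 0 in all libraries: SRSF12, an SR protein related to SRSF10, and HNRNPCL1, HNRNPCL2, HNRNPCL3 and HNRNPCL4, copies of HNRNPC. Changes were tested with limma on log2(FPKM + 1) over 12714 genes, and a gene is said to have fallen or risen when its Benjamini-Hochberg adjusted p was under 0.05. All log2 changes below use that scale, on which changes of low genes come out too small.

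SRSF3 and 4 HNRNP genes fell in the shDLGAP5-1 libraries, and no member rose. The 4 were HNRNPA2B1, HNRNPH3, HNRNPAB and HNRNPA3. SRSF3 lost 47.5% of its level, and the 4 HNRNP genes lost between 22.8% and 33.02%. The 5 calls make up 15.2% of the 33 tested members, while 9.52% of all tested genes fell, 15.3% rose and 24.8% changed in either direction. By family, 1 of 11 SRSF genes fell (9.09%) and 4 of 22 HNRNP genes fell (18.2%), with 0 rises in either family by limma. At an unadjusted p under 0.05, 2 SRSF genes were lower and 1 higher, and 8 HNRNP genes were lower and 0 higher. Over all 12714 tested genes, 2006 were lower and 2906 higher at that threshold. The members are abundant, and abundant genes fell more often. Among protein-coding genes with a mean of at least 10 FPKM, 14.2% fell and 11.1% rose. Of the 29 members at that level, 17.2% fell and 0 rose. At an unadjusted p under 0.05, 1305 of those 5859 protein-coding genes were lower and 1023 higher. By the same measure 10 of the 29 members were lower and 1 higher. The 29 members and the 5859 genes were not matched for level, with control medians of 90.7 and 23.1 FPKM.

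Upstream sequences are shown for 3 of the members that fell and, for comparison, for SRSF6, whose levels overlapped between the groups. They are the bases before the RefSeq start site on the plus strand of GRCh38.p14, up to the first base that an exon of an annotated coding transcript covers (the HNRNPH3 window lies inside the gene's interval as the deposited table gives it, but in no such exon): chr6:36594112-36594352 for SRSF3, chr10:68331443-68331692 for HNRNPH3, chr5:178204283-178204506 for HNRNPAB and chr20:43457646-43457895 for SRSF6. Capitals mark exact matches, on either strand, to the motifs named after them.
SRSF3: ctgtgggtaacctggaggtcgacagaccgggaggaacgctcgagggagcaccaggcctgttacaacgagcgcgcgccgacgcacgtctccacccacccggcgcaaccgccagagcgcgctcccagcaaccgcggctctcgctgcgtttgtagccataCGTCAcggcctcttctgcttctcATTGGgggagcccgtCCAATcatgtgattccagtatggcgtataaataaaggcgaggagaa
HNRNPH3: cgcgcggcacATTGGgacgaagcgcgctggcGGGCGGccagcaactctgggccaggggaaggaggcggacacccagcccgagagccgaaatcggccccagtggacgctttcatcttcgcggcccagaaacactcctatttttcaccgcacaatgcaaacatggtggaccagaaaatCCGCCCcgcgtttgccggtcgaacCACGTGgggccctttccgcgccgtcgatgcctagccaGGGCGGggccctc
HNRNPAB: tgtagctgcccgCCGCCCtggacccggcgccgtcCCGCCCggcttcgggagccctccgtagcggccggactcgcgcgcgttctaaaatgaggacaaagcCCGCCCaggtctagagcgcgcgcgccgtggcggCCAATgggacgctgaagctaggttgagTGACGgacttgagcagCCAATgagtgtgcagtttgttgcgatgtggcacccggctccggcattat
SRSF6: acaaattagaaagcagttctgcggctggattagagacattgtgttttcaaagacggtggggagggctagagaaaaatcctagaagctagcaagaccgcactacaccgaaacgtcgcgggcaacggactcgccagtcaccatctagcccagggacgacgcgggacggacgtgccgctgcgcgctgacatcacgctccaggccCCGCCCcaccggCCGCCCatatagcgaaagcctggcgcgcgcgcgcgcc
The motifs were the E2F site in 2 forms (TTTCCCGC and TTTGGCGC), the E-box of MYC (CACGTG), the CCAAT box (CCAAT), the SP1 box (GGGCGG), an ETS core (CCGGAAG), an NRF1 core (GCGCATGC) and a short CRE form (TGACG). No match overlapped another in the 4 printed windows. SRSF3 held 2 CCAAT boxes and 1 short CRE form, HNRNPAB 2 CCAAT boxes, 3 SP1 boxes and 1 short CRE form, HNRNPH3 1 CCAAT box, 1 E-box and 3 SP1 boxes, and SRSF6 only 2 SP1 boxes.

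The same motifs were counted in the 250 bases before the start site of the 34 members with an entry in the RefSeq promoter table and in all 35116 windows of that table. The CCAAT box was present in 18 members (52.9%) against 32.0% of all windows, and the short CRE form in 14 (41.2%) against 21.2%. Members with the CCAAT box include SRSF3, HNRNPA2B1, HNRNPH3, HNRNPAB and HNRNPA3, which fell. HNRNPA0, HNRNPC, HNRNPDL, HNRNPF, HNRNPLL, HNRNPU and SRSF8, whose groups overlapped, also had it. So did HNRNPH2, HNRNPL, HNRNPR and HNRNPUL2, lower without passing, and HNRNPCL1 and HNRNPCL2, at 0 in all libraries. Whether any motif goes with the falls was not tested. The E-box of MYC was found in 6 members, HNRNPA3, HNRNPD, HNRNPDL, HNRNPH2, HNRNPH3 and HNRNPM (17.6%), against 6.34% of all windows. The first E2F form was found in HNRNPLL and SRSF10 (5.88% against 1.39%) and the second in no member (0.55% of all windows). The SP1 box was in 58.8% of members against 42.6%. Members' windows were richer in G and C, with a median of 64.8% against 58.0%, and the part of base composition in these shares was not tested.

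SRSF3 had the smallest p of any member. It encodes the smallest SR protein, which also takes part in export of mRNA and in the choice of polyadenylation sites. The gene (ENSG00000112081) sits at 36594353 to 36605600 of chromosome 6 (plus strand). Its level was 83.97, 84.83 and 84.45 FPKM in control replicates 1 to 3 and 44.7, 42.1 and 46.1 FPKM in knockdown replicates 1 to 3. The groups were far apart, and the shNC-1 libraries differed from each other by less than 1 FPKM. The mean went from 84.4 ± 0.428 to 44.3 ± 2.01 FPKM (SD, n = 3 each), a log2 change of −0.92 (SE 0.09; adjusted p by limma = 0.00124). The call was kept in all 15 alternative fits, with a log2 change between −1.03 and −0.86. An exact two-sided permutation test of 3 against 3 libraries cannot go below p = 0.1, which is the value for SRSF3 and for every other member whose groups did not overlap.

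SRSF7, the SR protein most like SRSF3 and set apart by a zinc knuckle, stood at 52.1, 50.1 and 54.3 FPKM in the controls and at 47.0, 47.5 and 57.9 FPKM after knockdown. Its groups overlapped, with a log2 change of −0.04 and a 95% interval of the ratio from 0.805 to 1.17. Within a library, SRSF3 was 1.61, 1.69 and 1.56 times SRSF7 in shNC-1 and 0.951, 0.887 and 0.795 times SRSF7 in shDLGAP5-1. SRSF3 was thus above SRSF7 in each control library and below it in each knockdown library, in a ratio that does not depend on how libraries are scaled.

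SRSF2 and SRSF11 were the other SRSF genes whose groups did not overlap, and neither passed the test. SRSF2, an SR protein that stays in the nucleus and marks nuclear speckles, stood at 54.3, 46.2 and 67.4 FPKM in the controls and at 40.3, 39.5 and 43.9 FPKM after knockdown. The shNC-1 libraries were widely spread, and the log2 change was −0.42 (adjusted p by limma = 0.0825). SRSF11, an SR-related protein that contacts the factors of the 3′ splice site, stood at 47.9, 40.2 and 48.2 FPKM in the controls and at 67.7, 52.0 and 61.6 FPKM after knockdown. Every knockdown library was above every control library, with a log2 change of 0.40 (adjusted p by limma = 0.0686). The SRSF2 call was reached with columns scaled to the same total (adjusted p = 0.045) and after removal of a length trend (0.0438), and that of SRSF11 with quantile normalization (0.047).

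The remaining 8 tested SRSF genes had overlapping groups and log2 changes between −0.12 and 0.20. SRSF1, the founding member of the family, stood at 37.5 ± 1.58 FPKM in the controls and 35.8 ± 6.87 FPKM after knockdown (SD, n = 3 each), and the 95% interval of the ratio was 0.748 to 1.19. SRSF4, SRSF5 and SRSF6, which carry a pair of RNA recognition motifs, had log2 changes of −0.11, 0.20 and −0.04. SRSF6 was the most tightly bounded of these, at 59.8 ± 0.649 against 58.2 ± 2.31 FPKM, with a ratio between 0.840 and 1.13. SRSF9, the most abundant SRSF gene in both groups, went from 123.6 ± 14.2 to 133.6 ± 7.05 FPKM (log2 change 0.12). SRSF10, which acts as a repressor when dephosphorylated in mitosis or heat shock, had a value of −0.02, and SRSF8, an intron-poor copy of SRSF2, −0.12. The signs of SRSF6, SRSF7, SRSF9 and SRSF10 flipped in some alternative fits.

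**Figure D1:**
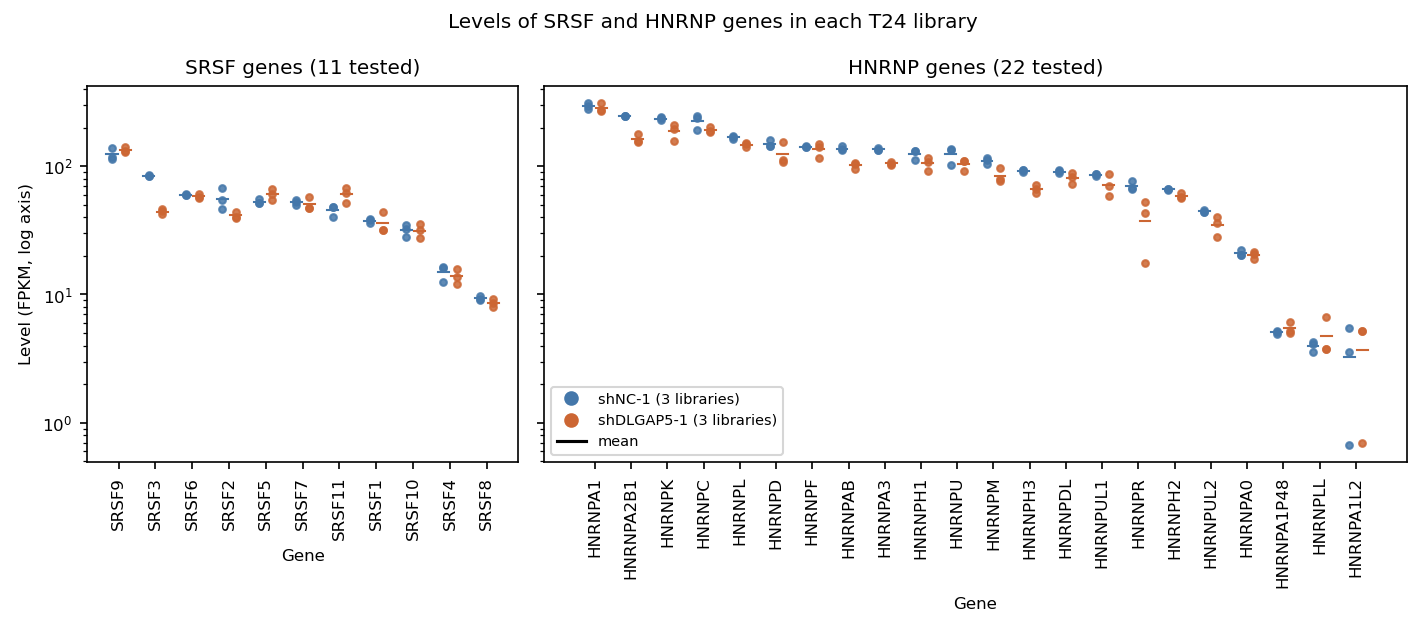
Level in FPKM (vertical, log axis) of the 11 tested SRSF genes (left) and 22 tested HNRNP genes (right); each point is 1 library, shNC-1 in blue and shDLGAP5-1 in orange, and short lines are means of 3 libraries. SRSF3 shows 84.0 to 84.8 FPKM in the controls against 42.1 to 46.1 FPKM after knockdown, and HNRNPR has 1 shDLGAP5-1 library at 17.5 FPKM.

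Among the hnRNP A/B proteins, which bind UAG-containing silencer sequences, HNRNPA2B1 and HNRNPA3 fell and HNRNPA1 and HNRNPA0 did not pass. HNRNPA2B1 (ENSG00000122566, chromosome 7, 26173057 to 26201529, minus strand) also sorts microRNAs and transports mRNA. It stood at 245.5, 243.8 and 244.1 FPKM in the controls and at 158.3, 154.8 and 178.1 FPKM after knockdown. All knockdown libraries were well below the controls, which lay within 2 FPKM of each other. The log2 change was −0.58 (SE 0.10; adjusted p by limma = 0.0088), and the call was kept in every leave-one-out fit.

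HNRNPA3 (ENSG00000170144, chromosome 2, 177212563 to 177223958, plus strand), a close relative of A2B1, stood at 133.9, 134.2 and 139.6 FPKM in the controls and at 108.5, 102.6 and 103.7 FPKM after knockdown. The groups were separate, with a log2 change of −0.37 (SE 0.09; adjusted p by limma = 0.0269). This call was lost without shNC-1 replicate 1, 2 or 3 (adjusted p = 0.09, 0.108 and 0.0743) and without shDLGAP5-1 replicate 2 or 3 (0.0709 and 0.0502), fits that also hold fewer libraries, and after removal of a length trend (0.0566).

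HNRNPA1, the best known repressor of the group and the most abundant member, stood at 293.4, 277.8 and 309.9 FPKM in the controls and at 271.0, 274.7 and 307.9 FPKM after knockdown. The groups overlapped, with a log2 change of −0.05 and a ratio between 0.810 and 1.16. HNRNPA2B1 relative to HNRNPA1 was 0.837, 0.878 and 0.788 in the shNC-1 libraries and 0.584, 0.564 and 0.578 in the shDLGAP5-1 libraries. HNRNPA3 relative to HNRNPA1 was 0.451 to 0.483 against 0.337 to 0.401, and neither ratio overlapped between groups. HNRNPA0, a factor that also binds AU-rich elements, had a value of −0.05 (21.0 ± 0.928 against 20.3 ± 1.22 FPKM; SD, n = 3 each). HNRNPA1L2, an intronless copy of HNRNPA1, and HNRNPA1P48, which is named after it, stood at 0.671 to 5.49 FPKM and 4.95 to 6.11 FPKM over all libraries, and reads of such copies cannot be firmly split from those of HNRNPA1.

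HNRNPAB, a factor that binds both RNA and the CArG box of DNA, fell, while its relatives HNRNPD and HNRNPDL did not pass. HNRNPAB (ENSG00000197451, chromosome 5, 178204533 to 178211163, plus strand) stood at 132.5, 135.2 and 143.8 FPKM in the controls and at 94.5, 105.2 and 104.0 FPKM after knockdown. The groups did not overlap and the log2 change was −0.43 (SE 0.10; adjusted p by limma = 0.0204). The call was lost without shNC-1 replicate 1, 2 or 3 (adjusted p = 0.0658, 0.0839 and 0.0637), fits with fewer libraries. HNRNPD, the decay factor AUF1, stood at 144.5, 144.5 and 161.2 FPKM in the controls and at 112.3, 153.3 and 106.8 FPKM after knockdown, where replicate 2 lay among the controls (log2 change −0.29). HNRNPAB relative to HNRNPD overlapped between the groups, so the data do not set their changes apart. HNRNPDL, which controls its own splicing, had a log2 change of −0.16.

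In the hnRNP H/F group, which binds runs of G, HNRNPH3 fell and HNRNPH1, HNRNPH2 and HNRNPF did not pass. HNRNPH3 (ENSG00000096746, chromosome 10, 68331174 to 68343191, plus strand) stood at 92.93, 92.94 and 90.81 FPKM in the controls and at 66.4, 61.9 and 71.1 FPKM after knockdown. The lowest control library was well above the highest knockdown library, and the log2 change was −0.47 (SE 0.10; adjusted p by limma = 0.0151). The call was lost without shNC-1 replicate 1 (adjusted p = 0.0632) or 2 (0.0728). HNRNPF stood at 143.2, 141.2 and 141.1 FPKM in the controls and at 116.3 and 141.8 FPKM in knockdown replicates 1 and 2, with replicate 3 above every control, and had a log2 change of −0.07. HNRNPH3 relative to HNRNPF was 0.643 to 0.658 in shNC-1 and 0.437 to 0.571 in shDLGAP5-1. HNRNPH1 had a value of −0.24 with overlapping groups, and HNRNPH2 a value of −0.17 with groups apart (65.6 to 66.3 against 56.7 to 61.7 FPKM). HNRNPH2 passed with the length trend removed (adjusted p by limma = 0.0463).

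**Figure D2:**
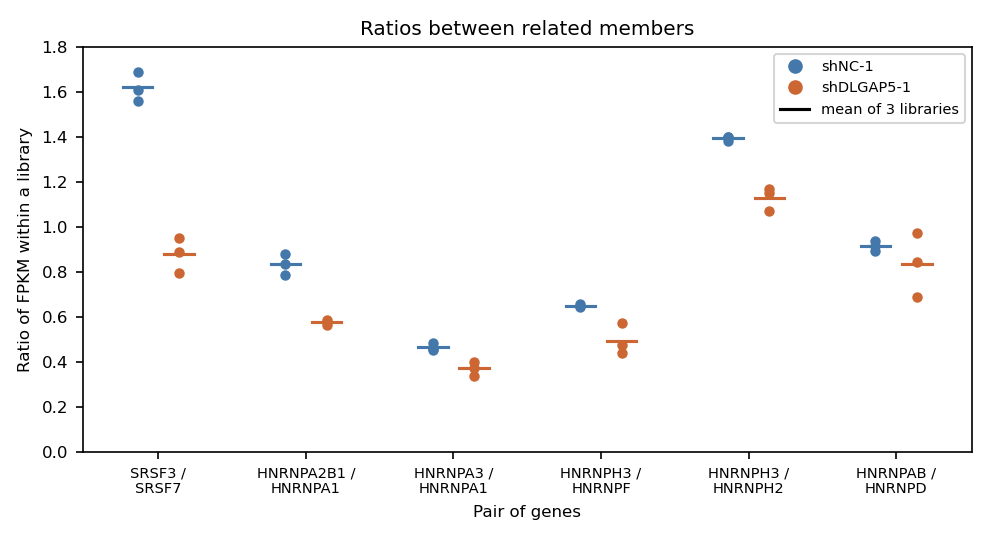
Ratio of the FPKM of related genes within each library (vertical), with shNC-1 in blue, shDLGAP5-1 in orange and lines for means of 3 libraries. 5 of the 6 pairs do not overlap between the groups, such as SRSF3 to SRSF7 (1.56 to 1.69 against 0.795 to 0.951), and HNRNPAB to HNRNPD does; the pairs were chosen after the fold changes were known and were not tested.

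HNRNPR had the largest estimate of any member and did not pass the test. It encodes an RNA-binding protein close to SYNCRIP and sits at 23303771 to 23344336 of chromosome 1 (minus strand). It stood at 76.6, 68.1 and 66.6 FPKM in the controls and at 17.5, 42.8 and 52.5 FPKM after knockdown. All knockdown libraries were lower, but replicate 1 was far below replicates 2 and 3. The log2 change was −1.02 with a standard error of 0.36 (adjusted p by limma = 0.0815). Without shDLGAP5-1 replicate 1 it was −0.56 and passed (adjusted p = 0.0307), and without shDLGAP5-1 replicate 3 it was −1.33 and passed (0.0378). In both fits the gene was lower, and its size rests on replicate 1.

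HNRNPM, HNRNPK, HNRNPUL2 and HNRNPL were also lower in each knockdown library than in any control, without passing. HNRNPM, a splicing factor known from mesenchymal programs, stood at 111.4, 104.2 and 115.2 FPKM in the controls and at 75.9, 97.0 and 79.2 FPKM after knockdown. Its log2 change of −0.39 had an adjusted p of 0.0549 by limma, which was under the threshold with columns scaled to the same total (0.0377), median-ratio scaling (0.043), the length trend removed (0.0222) and shDLGAP5-1 replicate 2 left out (0.0331). HNRNPK, which binds C-rich RNA and DNA, averaged 234.2 ± 6.47 FPKM in the controls and 187.0 ± 27.7 FPKM after knockdown (SD over 3 libraries; log2 change −0.33). HNRNPUL2, a relative of HNRNPU with a role in DNA end resection, had a value of −0.36, and HNRNPL, which binds CA repeats, −0.20. With the length trend removed HNRNPK and HNRNPUL2 also passed (adjusted p by limma = 0.0429 and 0.0393).

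The other HNRNP genes had overlapping groups. HNRNPC, which binds runs of U and keeps cryptic exons out, stood at 190.8, 247.5 and 235.4 FPKM in the controls and at 189.1, 202.1 and 183.6 FPKM after knockdown. Control replicate 1 lay among the knockdown libraries, and the log2 change was −0.22. HNRNPU, a scaffold of nuclear chromatin, had a value of −0.25 and HNRNPUL1 −0.27, where shDLGAP5-1 replicate 3 (86.6 FPKM) reached the controls. HNRNPLL, a regulator of splicing in lymphocytes, was low, at 3.56 to 4.25 FPKM in the controls and 3.76 to 6.71 FPKM after knockdown. Its highest value was in shDLGAP5-1 replicate 3, the library with LYZ; without that library its log2 change went from 0.18 to −0.05.

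As a family, HNRNP genes had a median log2 change of −0.25 and SRSF genes one of −0.04, beside 0.03 over all tested genes. The median was −0.05 over protein-coding genes with a mean of at least 10 FPKM, close to that of the SRSF genes. Estimates were below 0 for 19 of 22 HNRNP genes and 8 of 11 SRSF genes. They were below 0 for 5933 of all 12714 genes and for 3216 of the 5859 protein-coding genes at that level. All shDLGAP5-1 libraries lay under all shNC-1 libraries in 10 HNRNP genes (45.5%) and 2 SRSF genes (18.2%), beside 18.3% of all tested genes and 25.7% of protein-coding genes with a mean of at least 10 FPKM. The reverse held for 0 HNRNP genes and 1 SRSF gene, beside 25.6% of all tested genes and 1134 of those 5859 protein-coding genes. The summed level of the 26 HNRNP genes was 2531 to 2634 FPKM in the controls and 1992 to 2199 FPKM after knockdown, and that of the 12 SRSF genes 562.4 to 572.0 against 505.1 to 562.8 FPKM. The HNRNP sums were apart and the SRSF sums overlapped. As a share of each library's total, HNRNP was apart, at 0.606% to 0.617% against 0.409% to 0.51%. The SRSF shares nearly touched, at 0.131% to 0.138% against 0.113% to 0.13%. None of these sums was tested. Without shDLGAP5-1 replicate 3 the HNRNP median was −0.22 and the SRSF median −0.10, and 5 HNRNP genes and 1 SRSF gene fell; HNRNPA3 was no longer among them, and HNRNPR and HNRNPUL1 were added.

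Column scaling moved these medians. With columns scaled to the same total the median of all genes was −0.06, that of HNRNP genes −0.36 and that of SRSF genes −0.15. Relative to the median of all genes the HNRNP median was −0.28 as reported and −0.30 with the same total. With quantile normalization it was −0.16, and the SRSF median, also relative to all genes, turned from −0.08 to 0.02. HNRNP falls numbered 1 without shNC-1 replicate 1 or 2 and 2 without shNC-1 replicate 3, and 7 after removal of the length trend. Calls over all genes, 3155 as reported, moved too. They were 1511 and 1335 without shNC-1 replicates 1 and 2, and 3783 after removal of the length trend.

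**Figure D3:**
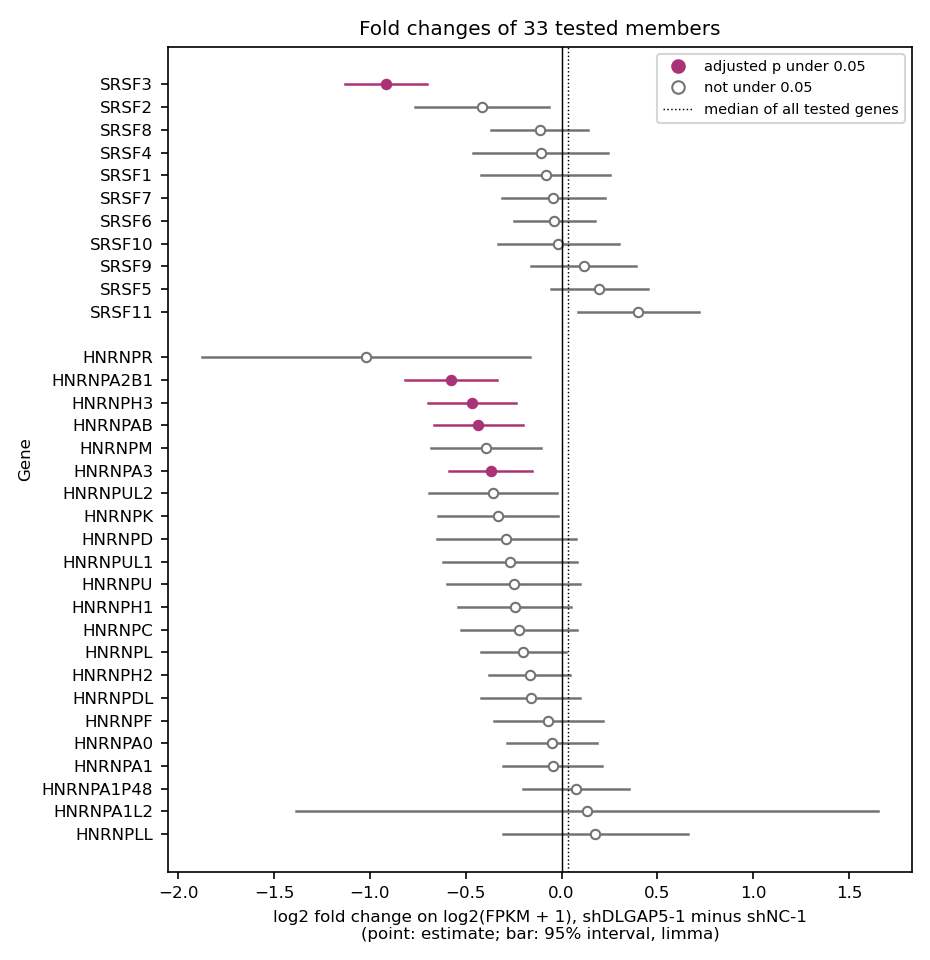
log2 change of the 33 tested members (horizontal; point: estimate; bar: 95% interval from limma), with filled points for adjusted p under 0.05; the dotted line is the median of all tested genes, 0.03. The filled points are SRSF3, HNRNPA2B1, HNRNPH3, HNRNPAB and HNRNPA3, and HNRNPR has the lowest estimate, at −1.02, with a wide bar.

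The values are sums over all transcripts of a gene and do not tell productive from decay isoforms. In GENCODE release 29, all 11 tested SRSF genes and 13 of 22 tested HNRNP genes (59.1%) have at least 1 transcript annotated for nonsense-mediated decay, against 44.4% of tested protein-coding genes. SRSF3 has 2 such transcripts among 8, SRSF7 6 among 12, HNRNPA2B1 1 among 9, and HNRNPH3, HNRNPAB and HNRNPA3 have none. Retained-intron transcripts are annotated for 22 of the 33 (66.7%), against 58.9%. At a mean of at least 10 FPKM the retained-intron shares were 72.4% of 29 members and 65.0% of protein-coding genes. These are counts of annotated transcripts and not of their use in T24 cells.

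Some members share sequence or genome positions with other entries, and the sources used here do not say whether counting used strand. HNRNPA2B1 overlaps CBX3 and NFE2L3, which lie on the other strand. CBX3 stood at 137.5 to 144.0 FPKM in the controls and 117.3 to 147.5 FPKM after knockdown, while NFE2L3 rose from 17.6 to 18.9 FPKM to 46.9 to 53.8 FPKM (log2 change 1.39, adjusted p by limma = 0.000658), opposite to HNRNPA2B1. HNRNPH2 shares its strand with a read-through entry, RPL36A-HNRNPH2, at 8.59 to 349.1 FPKM over the libraries with the highest value in shDLGAP5-1 replicate 1, so the HNRNPH2 level is uncertain. HNRNPAB overlaps PHYKPL (8.46 to 15.9 FPKM) and HNRNPH3 overlaps RUFY2 (4.16 to 9.13 FPKM), both on the other strand and much lower. HNRNPU overlaps COX20, which fell too (log2 change −0.66; adjusted p by limma = 0.00707). Of 126 pseudogene rows named after members 6 reached 1 FPKM in some library, led by HNRNPA1P7 at 28.8 to 51.2 FPKM. The 16 pseudogenes of HNRNPA3 summed to 2.32 to 3.48 FPKM.

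Splicing genes outside both families were taken from 5 hand-written lists. Of 144 tested genes 17 fell (11.8%) and 8 rose (5.56%), beside 9.52% and 15.3% of all tested genes, with a median log2 change of −0.17. These calls were sensitive to single libraries. Only TRA2B, TIA1 and SNRPN of the 25 kept their call in all 6 leave-one-out fits, which hold fewer libraries. The falls numbered 4, 2 and 3 without shNC-1 replicates 1, 2 and 3, and 15, 5 and 20 without shDLGAP5-1 replicates 1, 2 and 3. The rises numbered 3, 2 and 4 and then 6 in each of the last 3 fits. Calls over all tested genes, 3155 with all libraries, were 1511 and 1335 without shNC-1 replicates 1 and 2. Over the 6 leave-one-out fits they ran from 1335 to 3141, so losses of calls were not particular to splicing genes.

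Of 27 other SR-related proteins 2 fell (7.41% against 9.52% of all tested genes) and 1 rose (3.7% against 15.3%), with a median of −0.04. TRA2B, an SR-like activator of exons, stood at 51.0, 53.0 and 50.1 FPKM in the controls and at 26.0, 29.5 and 34.8 FPKM after knockdown. The groups were apart, with a log2 change of −0.76 (adjusted p by limma = 0.00693). U2AF2, the subunit of U2AF that binds the polypyrimidine tract, fell by 0.42 on the log2 scale, and RBM39, an SR-like coactivator, rose by 0.35. The RBM39 call was lost without each library in turn and that of U2AF2 on leaving out any 1 library but shDLGAP5-1 replicate 3, with adjusted p of up to 0.151 and 0.102.

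Among 15 kinases, phosphatases and importers of SR and hnRNP proteins the median was −0.03. In this list 3 rose (20.0% against 15.3% of all tested genes) and 1 fell (6.67% against 9.52%). CLK1, a kinase that phosphorylates the tail of SR proteins in the nucleus, stood at 27.1, 25.4 and 26.4 FPKM in the controls and at 44.1, 34.4 and 41.4 FPKM after knockdown. The log2 change was 0.58 (adjusted p by limma = 0.0145), which did not pass when control replicate 1 or 2 was left out (adjusted p up to 0.066). DYRK1B, a related kinase, rose by 0.60, lost only without shNC-1 replicate 2 (adjusted p = 0.0522) among the leave-one-out fits. PPP1CB, a catalytic subunit of protein phosphatase 1, rose by 0.45. TNPO3, the importin that carries SR proteins into the nucleus, stood at 25.1, 25.2 and 22.5 FPKM in the controls and at 13.1, 16.3 and 19.0 FPKM after knockdown, a log2 change of −0.57 (adjusted p by limma = 0.0301). The TNPO3 call was lost on leaving out any 1 shNC-1 library or shDLGAP5-1 replicate 2, and the PPP1CB call on leaving out any 1 library but shDLGAP5-1 replicate 3, with adjusted p of up to 0.106 and 0.0937.

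Of 40 hnRNP proteins with other symbols and further splicing regulators 6 fell and 2 rose, with a median of −0.23. The falls made up 15% of the list, against 9.52% of all tested genes, and the rises 5%, against 15.3%. SYNCRIP, known as hnRNP Q, stood at 40.1, 41.4 and 37.3 FPKM in the controls and at 23.7, 23.8 and 30.2 FPKM after knockdown (log2 change −0.60, adjusted p by limma = 0.0153). RBM17, a spliceosome factor, fell by 0.47 on the log2 scale. TIA1, which promotes use of weak splice donors and forms stress granules, stood at 19.1, 18.0 and 15.6 FPKM in the controls and at 30.2, 26.7 and 32.2 FPKM after knockdown, with no overlap and a log2 change of 0.72 (adjusted p by limma = 0.00753). RBM4B rose by 0.40 and overlaps its paralog RBM4. The call of SYNCRIP was lost when control replicate 1, control replicate 2 or knockdown replicate 2 was left out, that of RBM17 without control replicate 2, control replicate 3 or knockdown replicate 2, and that of RBM4B on leaving out any 1 library but shDLGAP5-1 replicate 3. Their largest adjusted p were 0.0679, 0.0937 and 0.129 for SYNCRIP, RBM17 and RBM4B.

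Of 45 core proteins of the snRNPs 6 fell (13.3% against 9.52% of all tested genes) and 2 rose (4.44% against 15.3%), with a median of −0.24. SNRPC, a U1 protein, stood at 77.0, 60.2 and 101.7 FPKM in the controls and at 47.7, 43.9 and 45.4 FPKM after knockdown, a log2 change of −0.76. PRPF4 and PRPF31, proteins of the tri-snRNP, fell by 0.54 and 0.45 on the log2 scale. SNRPN, an Sm protein gene whose transcripts are shared with SNURF and whose sequence is close to SNRPB, rose from 12.8 ± 3.21 to 32.2 ± 2.09 FPKM (SD, n = 3 each), with a log2 change of 1.30 (adjusted p by limma = 0.00377). SF3A2, a U2 protein, rose by 0.42. The calls of PRPF4 and PRPF31 were lost on leaving out any 1 shNC-1 library, that of SNRPC on leaving out shNC-1 replicate 1 or any 1 shDLGAP5-1 library, and that of SF3A2 in 5 of 6 leave-one-out fits, all but the fit without shDLGAP5-1 replicate 1. The largest adjusted p in those fits were 0.0757 for PRPF4, 0.0684 for PRPF31, 0.0746 for SNRPC and 0.0904 for SF3A2.

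The last list held 17 genes of the exon junction complex and nonsense-mediated decay, the pathway that removes decay isoforms of SRSF genes. By limma 2 fell (11.8% against 9.52% of all tested genes) and 0 rose (against 15.3%), with a median of −0.27. At an unadjusted p under 0.05, 4 were lower and 0 higher, beside 2006 lower and 2906 higher among all 12714 tested genes. SMG5, which recruits decay enzymes, stood at 40.2, 39.3 and 39.1 FPKM in the controls and at 22.6, 28.3 and 30.4 FPKM after knockdown (log2 change −0.54, adjusted p by limma = 0.0232). RBM8A, the Y14 subunit of the junction complex, had a log2 change of −0.34. The SMG5 call was lost on leaving out any 1 shNC-1 library or shDLGAP5-1 replicate 2, and that of RBM8A on leaving out any 1 library but shDLGAP5-1 replicate 1, with adjusted p of up to 0.081 and 0.131.

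**Figure D4:**
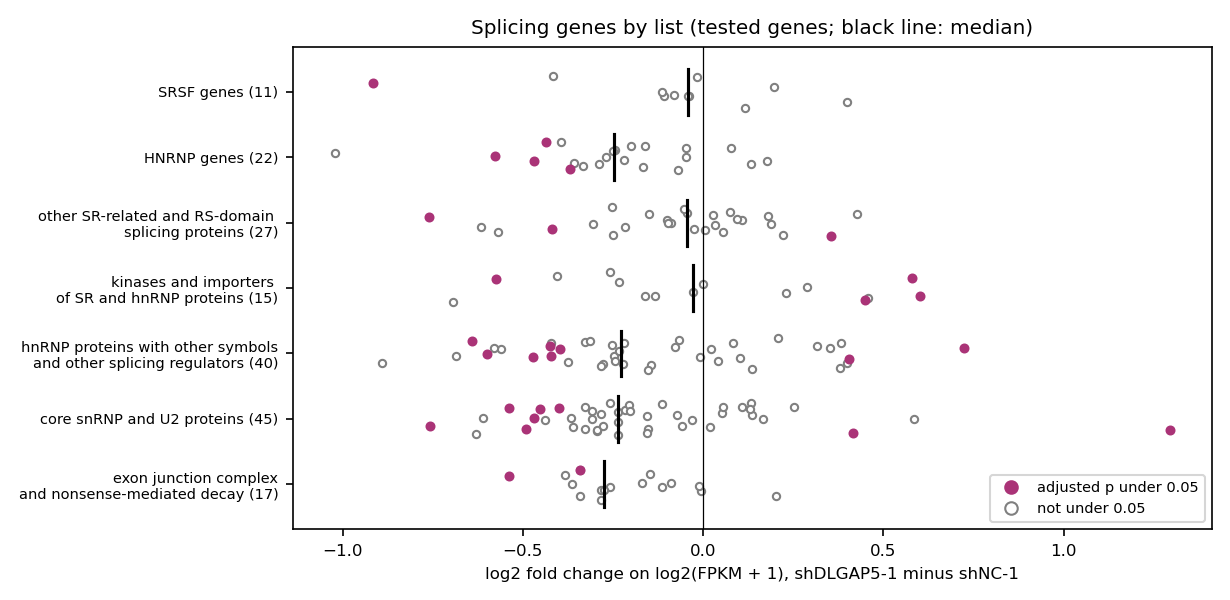
log2 change of each tested gene (horizontal) in the SRSF and HNRNP families and 5 other lists of splicing genes, with the number of genes in brackets; filled points have adjusted p under 0.05 and black lines are medians. Medians lie between −0.27 and −0.03, and the highest point is SNRPN at 1.30.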

How the data were processed

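Messenger RNA libraries from T24 cells were sequenced, 3 with shNC-1 and 3 with shDLGAP5-1, grouped by their titles. The authors deposited 1 table of values normalized to gene length and library size, taken here as FPKM from the values themselves since its header names no unit. Per the labels' protocols RNA came from a column kit and an mRNA library kit. Aligner, quantifier, annotation and strand setting: not given in the sources used here. Control columns match titles by name. The other 3 columns carry a construct number and were given to shDLGAP5-1 as the only other group, numbered as in the column names. GENCODE release 29 holds 99.5% of the rows, 87.1% of them at identical GRCh38 positions, and positions are printed in GRCh38. Fragments were not recovered as whole counts (11.5% to 19.1% of low values within 0.05 of a whole number), so no count test was run and depths are approximate. FPKM divide by length and total, so composition shifts all genes.

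The test was limma 3.58.1 (R 4.3.3) on log2(FPKM + 1), its variance prior following the mean level, for genes reaching 1 FPKM in 3 or more libraries, and p-values were adjusted by Benjamini-Hochberg over 12714 genes; the script was tested on simulated data. Levels are means ± SD. Permutation tests were exact and two-sided. Alternatives were a pseudocount of 0.1 in place of 1, no filter, a filter of 5 FPKM, scaling to the same total, median-ratio and quantile scaling, removal of a lowess length trend (span 0.3, longest GENCODE transcript), a replicate block, a robust prior and each library left out. Genes named are all members, DLGAP5, entries that overlap members or copy them, up to 3 called genes per direction and list with the smallest p, and markers of a library that stands apart. A gene that this rule names is not reported here. The members and lists were chosen with earlier results of these data known. The subset of at least 10 FPKM, the motifs, the printed windows and the gene pairs were chosen after seeing the data. Where a symbol has 2 rows, the higher one was used. Upstream sequences came from RefSeq (GRCh38.p14), where 34 of 38 members matched by symbol and the entry nearest the gene's start was taken.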

Additional observations from a re-analysis of the deposited data

How the results depend on the processing

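Over 15 alternatives, SRSF3 kept its direction and its call in each, and HNRNPA2B1 in each except the replicate block (adjusted p = 0.0552). SRSF falls, 1 as reported, were 2 with the same total and 2 with the length trend removed, and SRSF rises, 0 as reported, were 1 with quantile normalization. HNRNP falls, 4 as reported, were 7 with the length trend removed, and rises were 0 throughout. Calls over all genes, 3155 as reported, were 2071 with no filter and 3783 with the length trend removed. In the other splicing lists falls, 17 as reported, were 8 with no filter and 34 with the length trend removed, and rises, 8 as reported, were 4 with the same total and 5 with median-ratio scaling. Over the leave-one-out fits, which also hold fewer libraries, SRSF falls stayed at 1, HNRNP falls ran from 1 to 5, calls over all genes from 1335 to 3141, and other splicing falls from 2 to 20 and rises from 2 to 6.

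Deviations of same-numbered libraries from their group means had correlations of −0.155, 0.021 and −0.157. Those of libraries with different numbers ran from −0.065 to 0.193. These values cannot settle whether same-numbered libraries belong together, since deviations within a group of 3 libraries depend on each other. With the replicate block, which leaves fewer degrees of freedom, HNRNP falls were 0, SRSF falls 1 (SRSF3), calls over all genes 1464, and other splicing falls 4 and rises 3.

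Signs turned only for members that had not passed. HNRNPA1P48 turned to −0.0175 with the same total, −0.0269 with quantile normalization and −0.0783 with the length trend removed. With quantile normalization SRSF6 turned to 0.0131 and SRSF10 to 0.0371, and with the length trend removed SRSF9 turned to −0.0314 and HNRNPA1L2 to −0.0302. Over the leave-one-out fits HNRNPA1L2 ran from −0.4351 to 0.7566, SRSF10 from −0.1038 to 0.0752, SRSF7 from −0.1384 to 0.009, HNRNPF from −0.1427 to 0.0397 and HNRNPLL from −0.0549 to 0.2929. The cause of these changes was not tested. By the rough depth estimate, which few low values bear out, the shDLGAP5-1 libraries were the shallower. The part of depth in the results was not tested. With 3 libraries a group, the 95% intervals of 14 of 22 HNRNP genes held 0.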
